A study of Mus musculus with 2 samples.

Results

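The Fas and TRAIL death receptor pathway was followed through 7 genes, found by symbol among the 28692 genes of the count matrices. They were the ligands Fasl and Tnfsf10, the receptors Fas and Tnfrsf10b, the adaptor Fadd, the protease Casp8 and its regulator Cflar. They were selected because liver macrophages have been proposed to kill T cells through Fas ligand, so the question for each cell type is which of the ligand, the receptor and the downstream parts its RNA held. Droplet single-cell RNA sequencing from transcript 5′ ends had been run on mononuclear cells from livers of C57BL/6 mice, with 1 library for each of 2 groups and the cells of 3 mice pooled in each library. The control group, labelled "No tumor", received PBS into the spleen. The MC38 group had 500000 MC38 cells, a line from a mouse colon tumor, injected into the spleen, which was then taken out. Livers were taken on day 14 in both. The growth protocol is word for word the same for both groups and adds 3000000 MC38 cells under the skin, and both sample titles carry "SC", so it is not given whether control mice bore a subcutaneous tumor or lost their spleens. Ages and sexes are not given, hepatocytes were depleted by slow centrifugation, and the buffy layer of a density gradient was kept, so cells of the other layers were not seen. With 1 pooled library per group no test between groups exists and no difference has a replicate check. All intervals are exact 95% intervals that cover counting error only.

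Fas and the TRAIL receptor are death receptors of the tumor necrosis factor receptor family. When Fas ligand or TRAIL, encoded by Fasl and Tnfsf10, binds its receptor, the adaptor FADD (Fadd) gathers caspase-8 (Casp8), which cuts itself and starts apoptosis, while cFLIP (Cflar), a relative of caspase-8 that lacks protease activity, restrains that step in many settings. Cytotoxic T cells and natural killer (NK) cells use Fas ligand to kill targets, activated T cells are themselves removed through Fas, and in the mouse liver TRAIL is a known product of type 1 innate lymphoid cells (ILC1). Tnfrsf10b encodes the mouse death receptor for TRAIL.

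The control library held 14258 barcodes and 91617457 unique molecular identifiers (UMIs, each counting 1 captured RNA molecule), and the MC38 library 19822 barcodes and 114421875 UMIs, with 63 barcode sequences in both. After removal of called doublets and of barcodes with under 200 genes or over 10% mitochondrial UMIs, 3439 control cells (24.1%, median 7766 UMIs) and 11855 MC38 cells (59.8%, median 4034 UMIs) remained. The loss was unequal because 74.8% of control and 33.3% of MC38 barcodes lay over the mitochondrial limit. Cells were classed one by one by how many marker genes of each type they held, so a name such as T-cell-like stands for marker content alone. T-cell-like cells numbered 671 and 378 (control and MC38), NK- or ILC1-like cells 319 and 227, monocyte- or macrophage-like cells 764 and 3805, and hepatocyte-like barcodes 87 and 3866. Defining markers followed the class names: Cd3e was seen in 82.1% and 74.3% of T-cell-like cells and in 2.09% and 0.605% of monocyte- or macrophage-like cells, where Csf1r was seen in 98.0% and 96.2%.

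On the GRCm38 build with the GENCODE M21 annotation, Fasl lies on chromosome 1 from 161780689 to 161788495 (minus strand) and Tnfsf10 on chromosome 3 from 27317028 to 27342427 (plus). Fas lies on chromosome 19 from 34290666 to 34327772 (plus), Tnfrsf10b on chromosome 14 from 69767472 to 69784411 (plus) and Fadd on chromosome 7 from 144577318 to 144582463 (minus). Cflar (58711508 to 58758884) and Casp8 (58795374 to 58847503) are neighbours on the plus strand of chromosome 1. Fadd overlaps an antisense gene, Faddos, which had 2 UMIs in both libraries together, and no source used here gives the strand setting of the counting. The promoters below are shown because Fas, Tnfsf10 and Cflar differed together in monocyte- or macrophage-like cells, and Fasl is the ligand the question turns on. Each is the RefSeq window (GRCm38.p6) of 300 bases written 5′ to 3′ in the direction of the gene, and capitals mark matches to 3 motifs searched on both strands: the core of the interferon-stimulated response element (GAAANNGAAA), the gamma-activated site (TTCNNNGAA) and the NFAT core (GGAAAA). Fasl is chr1:161788446-161788745 (minus), Fas is chr19:34290409-34290708 (plus), Tnfsf10 is chr3:27316827-27317126 (plus) and Cflar is chr1:58711241-58711540 (plus).
Fasl: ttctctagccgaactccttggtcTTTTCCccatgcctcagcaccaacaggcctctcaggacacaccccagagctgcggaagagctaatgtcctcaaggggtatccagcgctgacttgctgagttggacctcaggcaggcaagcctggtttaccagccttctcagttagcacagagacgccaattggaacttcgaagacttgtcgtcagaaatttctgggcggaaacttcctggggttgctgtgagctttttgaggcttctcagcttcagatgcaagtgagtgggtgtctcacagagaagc
Fas: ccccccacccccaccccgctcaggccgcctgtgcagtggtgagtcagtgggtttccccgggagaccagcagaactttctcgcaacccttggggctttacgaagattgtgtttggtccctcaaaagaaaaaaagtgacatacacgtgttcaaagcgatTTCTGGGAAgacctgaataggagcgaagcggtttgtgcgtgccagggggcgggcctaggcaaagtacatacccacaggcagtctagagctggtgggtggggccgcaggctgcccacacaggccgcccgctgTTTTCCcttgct
Tnfsf10: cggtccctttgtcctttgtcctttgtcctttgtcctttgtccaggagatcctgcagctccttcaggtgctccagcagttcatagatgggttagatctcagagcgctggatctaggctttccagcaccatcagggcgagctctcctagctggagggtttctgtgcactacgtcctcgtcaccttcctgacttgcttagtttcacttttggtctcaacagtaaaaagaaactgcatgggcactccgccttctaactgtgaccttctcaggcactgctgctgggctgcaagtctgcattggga
Cflar: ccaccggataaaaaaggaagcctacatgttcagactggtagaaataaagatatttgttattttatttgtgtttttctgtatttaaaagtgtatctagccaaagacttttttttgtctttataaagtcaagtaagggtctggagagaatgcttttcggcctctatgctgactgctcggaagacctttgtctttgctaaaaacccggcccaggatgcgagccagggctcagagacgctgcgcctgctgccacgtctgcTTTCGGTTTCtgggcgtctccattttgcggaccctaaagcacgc
The Cflar window held 1 interferon-stimulated core at bases 257 to 266, which 3.44% of all 32851 promoter windows hold. The Fas window held 1 gamma-activated site at bases 158 to 166 (8.3% of windows) and 1 NFAT core at bases 289 to 294 (23.4% of windows), and the Fasl window 1 NFAT core at bases 24 to 29. The Tnfsf10 window held none of these letters. The pattern TTCNNNGAA is its own reverse complement, so its match is found on both strands and is counted once. No match overlaps one of another motif, and the matches are a description of the letters, not of binding.

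Fasl RNA was found in lymphocytes and was close to absent from every myeloid class. NK- or ILC1-like cells held 101.6 CPM (control) and 129.1 CPM (MC38), where CPM, the usual depth-scaled count, is the gene's UMIs summed over the cells of a class and scaled to all UMIs of that class. T-cell-like cells held 45.5 and 43.6 CPM. Levels in NK- or ILC1-like cells were 2.23 times (1.82 to 2.74) and 2.96 times (2.3 to 3.82) those in T-cell-like cells. At least 1 Fasl UMI was seen in 39.2% and 41.9% of NK- or ILC1-like cells and in 27.1% and 21.2% of T-cell-like cells. With every cell thinned to 1000 UMIs, which left out 1 T-cell-like cell of each library and 3 MC38 NK- or ILC1-like cells, these shares were 10.3% and 13.8%, and 5.82% and 3.98%. Of all 525 control Fasl UMIs, T-cell-like cells held 46.5% and NK- or ILC1-like cells 30.7%, and of the 396 in the MC38 library they held 28.0% and 38.1%. Most of the rest lay in barcodes that passed the T and the monocyte or macrophage gates together (5.33% and 16.4%) or several other gates (15.6% and 13.4%).

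Monocyte- or macrophage-like cells, the class that holds most of the myeloid cells, were largely cells with classical monocyte markers (538 control and 3304 MC38). Those with macrophage markers, which the question is about, numbered 9 and 278. The whole class held 1 Fasl UMI in 764 control cells and 7 Fasl UMIs in 6 of 3805 MC38 cells. That is 0.136 CPM (0.00344 to 0.757) and 0.156 CPM (0.0627 to 0.321), and 0.131% and 0.158% of cells. As a background, B-cell-like cells gave 0 UMIs in 177 control cells and 1 UMI in 920 MC38 cells (0.306 CPM, 0.00775 to 1.71), and hepatocyte-like barcodes 0 UMIs in 87 and 3 UMIs in 3866 (0.436 CPM, 0.0899 to 1.27). Median depth was 9169 and 11363 UMIs per monocyte- or macrophage-like cell, 3509 and 2789 in B-cell-like cells and 1202 and 1375.5 in hepatocyte-like barcodes. In kept cells the monocyte and macrophage levels therefore lay within the counting intervals of these background classes. Barcodes over the mitochondrial limit are given at the end. T-cell-like cells held 334.7 times (59.5 to 13270) and 279.9 times (131.4 to 712.3) the Fasl CPM of monocyte- or macrophage-like cells.

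No Fasl UMI was counted in kept cells of the Kupffer-like class, named for the macrophages that reside in the liver. There were 45 control and 141 MC38 such cells, and 3 UMIs would have given 15.1 and 3.17 CPM, so a level below these was not detectable in them. Most control Kupffer-like barcodes lay over the mitochondrial limit. Those over it held 1 Fasl UMI in 660 control barcodes (0.883 CPM, 0.0224 to 4.92). In 329 MC38 barcodes they held 0, where 3 UMIs would give 3.28 CPM. In neutrophil-like cells (15 and 200) and mature dendritic cells (mature DC-like, 28 and 175) the count was also 0, against 38.6 and 6.20 CPM, and 14.6 and 2.10 CPM, for 3 UMIs. Conventional dendritic cells of type 2 (cDC2-like) held 3 UMIs in 167 and 1 UMI in 148 cells. Among MC38 monocyte- or macrophage-like cells, those holding a larger share of the macrophage list than of the classical or nonclassical monocyte list held 3 Fasl UMIs in 2 of 278 cells (0.896 CPM), and those with classical monocyte markers 4 UMIs in 4 of 3304 (0.102 CPM), a ratio of 8.82 (1.29 to 52.1) that rests on 7 UMIs. Control cells placed by the macrophage list numbered 9 and held 0 Fasl UMIs, where 3 UMIs would give 58.9 CPM. Cells with at least 3 UMIs of Arg1, an enzyme of tumor-associated macrophages, held 2 Fasl UMIs in 1 of 359 MC38 cells, and the control library had 1 such cell, with none.

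Set against 17 T and NK marker genes, Fasl stood at 6.88 (6.05 to 7.80) and 6.81 (5.60 to 8.20) UMIs per 1000 marker UMIs in T-cell-like cells and at 6.02 (5.13 to 7.03) and 8.33 (7.05 to 9.77) in NK- or ILC1-like cells. Monocyte- or macrophage-like cells stood at 1.94 (0.0492 to 10.8) and 8.05 (3.24 to 16.6), on 515 and 870 marker UMIs. The intervals of that class rest on few Fasl UMIs and are wide. They neither separate it from lymphocytes nor show that it shared their proportion. Whether the marker UMIs of that class came from lymphocytes was not tested. A T or NK marker UMI was present in 2 of the 6 MC38 barcodes with Fasl and in 15.3% of those without. Barcodes joining T and monocyte or macrophage markers (109 and 244) held Fasl at 14.6 and 13.4 CPM and at 5.77 and 5.23 per 1000 marker UMIs. Their median depth was 17319 and 18286 UMIs, above that of either class alone, and whether they are pairs of cells or single cells was not tested.

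**Figure D1:**
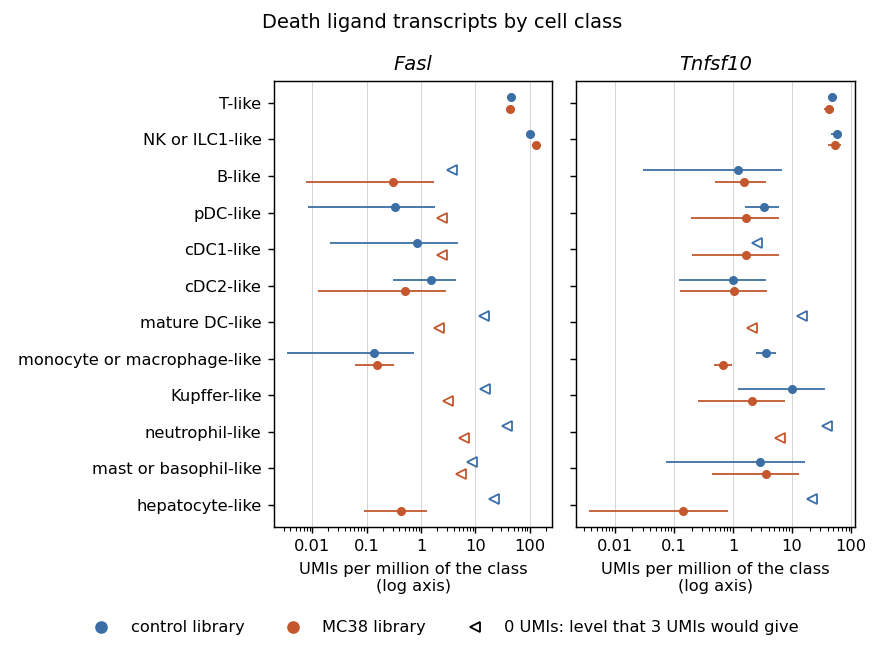
Levels of the death ligands Fasl and Tnfsf10 in each cell class (vertical axis), as CPM of the class on a log axis, for the control (blue) and MC38 (orange) library. Points are the 1 library per group, bars are exact Poisson 95% intervals, and open triangles mark classes with 0 UMIs at the level that 3 UMIs would give. Both ligands stood above 40 CPM in the T-cell-like and the NK- or ILC1-like class of both libraries, and Fasl stood at 0.136 and 0.156 CPM in monocyte- or macrophage-like cells.

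Tnfsf10, encoding TRAIL, was also highest in lymphocytes, with a few UMIs in other classes. T-cell-like cells held 46.6 and 42.5 CPM and NK- or ILC1-like cells 56.8 and 52.2 CPM (control and MC38), levels whose difference between the classes was within counting error in each library. Monocyte- or macrophage-like cells held 27 UMIs in 22 control cells (3.67 CPM, 2.42 to 5.34) and 31 UMIs in 28 MC38 cells (0.690 CPM, 0.469 to 0.980). Against the T and NK markers these were 52.4 (34.6 to 76.3) and 35.6 (24.2 to 50.6) Tnfsf10 UMIs per 1000 marker UMIs, above the 7.05 (6.21 to 7.98) and 6.62 (5.43 to 8.0) of T-cell-like cells. This was not particular to the class, nor was it shared by all classes. Tnfsf10 stood at 64.9 (21.1 to 151.5) in MC38 B-cell-like cells on 5 UMIs, at 32.4 (15.5 to 59.5) in control pDC-like cells on 10 UMIs and at 153.8 (18.6 to 555.7) in MC38 mast- or basophil-like cells on 2 UMIs. It was not above the T-cell-like values in cDC2-like cells, at 5.115 (0.62 to 18.5) and 5.78 (0.7 to 20.9). MC38 hepatocyte-like barcodes stood at 4.37 (0.111 to 24.3), and MC38 mature DC-like cells at 0 (0 to 15.0) on 246 marker UMIs. Kupffer-like cells held 2 Tnfsf10 UMIs in each library, and mature DC-like and neutrophil-like cells held none.

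Within NK- or ILC1-like cells the ligands divided by subset. Tnfsf10 stood at 171.1 and 108.8 CPM in ILC1-like cells (59 and 50 cells) and at 13.2 and 10.8 CPM in conventional NK-like cells (226 and 122), so conventional NK-like cells had 0.0772 times (0.0397 to 0.140) and 0.0994 times (0.0344 to 0.236) the ILC1-like level. Fasl did not divide in this way, at 84.0 and 92.1 CPM in ILC1-like and 102.8 and 149.6 CPM in conventional NK-like cells, ratios of 1.22 (0.802 to 1.93) and 1.63 (1.07 to 2.51). T-cell-like cells without a Cd4 or Cd8 UMI (278 and 131) held Fasl at 63.6 and 59.5 CPM. T-cell-like cells that also passed the NK gate held Fasl at 69.2 and 64.2 CPM, against 41.3 and 37.4 CPM in the others, and Tnfsf10 at 77.9 and 65.9 against 41.0 and 35.3 CPM. Control cells with Zbtb16, which encodes PLZF of innate-like T cells, held 62.7 CPM of Fasl against 40.2 CPM in those without, a ratio of 1.56 (1.18 to 2.05). Foxp3-positive cells, which include regulatory T cells, were few (23 and 15) and held 2 and 1 Fasl UMIs. Among Cd8 T-cell-like cells, 57.1% and 46.4% of those with a Fasl UMI also held a Tnfsf10 UMI, against 17.7% and 10.1% of those without, in cells whose depth was not matched. The shares were closer in Cd4 T-cell-like cells, at 30.8% and 25.0% against 26.8% and 22.1%. In NK- or ILC1-like cells they were 17.6% and 18.95% against 17.0% and 18.2%.

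Fas RNA, for the receptor, followed another order of classes. In the control library, among classes of 20 or more cells, mature DC-like cells led at 121.5 CPM (78.6 to 179.4, 25 UMIs in 10 of 28 cells, with 8 UMIs in 1 cell), followed by monocyte- or macrophage-like cells at 36.8 CPM (32.6 to 41.5). T-cell-like cells held 18.6 CPM (15.2 to 22.7), B-cell-like cells 15.7 CPM, cDC2-like cells 7.98 CPM, NK- or ILC1-like cells 3.79 CPM and plasmacytoid dendritic (pDC-like) cells 2.97 CPM. Below mature DC-like cells, neighbours in the control order, taken over all classes of 20 or more cells, did not differ beyond counting error. That order holds classes not listed here, such as hepatocyte-like barcodes (21.5 CPM on 3 UMIs) between monocyte- or macrophage-like and T-cell-like cells. Classes further apart did differ, and T-cell-like cells had 0.506 times (0.398 to 0.639) the control monocyte- or macrophage-like level. In the MC38 library neutrophil-like cells led at 90.9 CPM (66.0 to 122.0, 200 cells), ahead of mature DC-like cells at 47.0 CPM (36.4 to 59.6, 175 cells). T-cell-like cells held 16.1 CPM, hepatocyte-like barcodes 15.8 CPM and monocyte- or macrophage-like cells 14.3 CPM, which did not differ beyond counting error. Control neutrophil-like cells numbered 15 and held 4 Fas UMIs. Mature DC-like cells had 15.2 times (7.82 to 30.5) and 13.0 times (5.95 to 33.5) the Fas level of cDC2-like cells.

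Of the summed Fas RNA, monocyte- or macrophage-like cells held 47.1% of all 575 control Fas UMIs and 57.7% of the 1117 in the MC38 library, while T-cell-like cells held 17.4% and 3.67%. Over all genes, monocyte- or macrophage-like cells held 7359974 of 30220937 control UMIs and 44903273 of 80111606 MC38 UMIs. T-cell-like cells held 5365141 and 2544169 UMIs. The MC38 shares of Fas were thus close to the shares of all RNA, and such shares do not give levels. As CPM, T-cell-like cells had 0.506 times (0.398 to 0.639) the Fas of monocyte- or macrophage-like cells in the control library and 1.12 times (0.799 to 1.54) in the MC38 library. A Fas UMI was seen in 25.0% and 14.6% of monocyte- or macrophage-like cells, and with cells thinned to 1000 UMIs in 4.34% and 1.32%. Thinned T-cell-like cells gave 1.94% (1.04 to 3.30) and 3.45% (1.85 to 5.82), on 13 cells with a UMI in each library. NK- or ILC1-like cells with a Fas UMI were 1.88% and 3.52%.

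Tnfrsf10b was barely detected, with 41 UMIs in 40 control cells and 35 UMIs in 35 MC38 cells. The highest count in a class was 15 UMIs in control T-cell-like cells (2.80 CPM), and MC38 T-cell-like cells held 5 (1.97 CPM). No UMI was found in NK- or ILC1-like cells of either library, where 3 UMIs would give 1.89 and 2.57 CPM, nor in hepatocyte-like barcodes. Monocyte- or macrophage-like cells held 0 and 7 UMIs. The receptor side of TRAIL could not be compared between libraries in 5 of the 6 classes for want of counts.

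**Figure D2:**
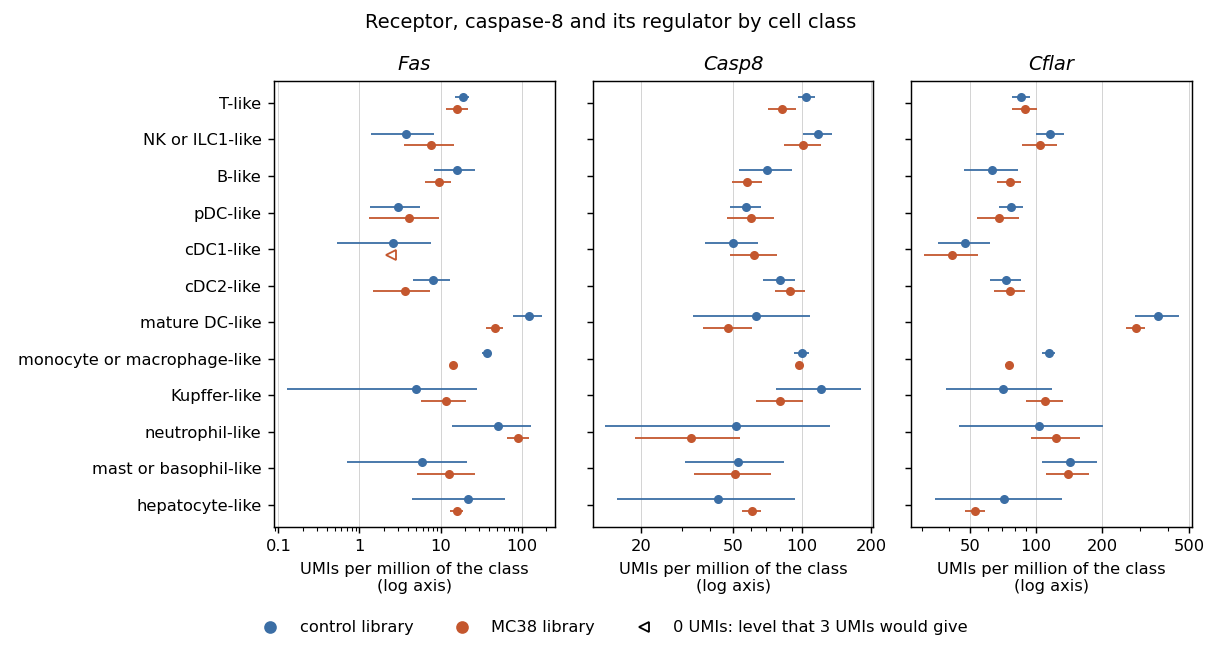
Levels of Fas, Casp8 and Cflar in each cell class (vertical axis), as CPM of the class on log axes that differ between panels, for the control (blue) and MC38 (orange) library. Points are the 1 library per group with exact Poisson 95% intervals, and the open triangle marks 0 Fas UMIs at the level that 3 UMIs would give. Mature DC-like cells stood at 359.7 and 285.2 CPM of Cflar, above the other classes drawn, while their Casp8 stood at 63.2 and 47.7 CPM.

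The intracellular parts were spread over all classes. Fadd was low and even, from 5.03 to 11.6 CPM in the control classes with any UMI apart from the 15 neutrophil-like cells and 16 platelet-like barcodes. Mature DC-like cells held 0 Fadd UMIs in 28 control cells, where 3 UMIs would give 14.6 CPM, and 19.6 CPM in the MC38 library. Casp8 stood at 104.4 and 81.8 CPM in T-cell-like cells, 116.8 and 100.9 CPM in NK- or ILC1-like cells and 99.6 and 96.9 CPM in monocyte- or macrophage-like cells. MC38 neutrophil-like cells held 33.0 CPM (18.9 to 53.7). Among classes of 20 or more cells, Cflar was highest in mature DC-like cells, at 359.7 and 285.2 CPM, which was 4.94 times (3.68 to 6.58) and 3.77 times (3.12 to 4.59) the cDC2-like level. Mast- or basophil-like cells were next among these, at 143.1 and 140.2 CPM, and T-cell-like cells held 85.6 and 88.8 CPM.

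The ratio of Cflar to Casp8 UMIs sets the regulator beside the protease within a class, and since UMI yield differs between genes only its differences between classes can be read. It was 5.69 (3.13 to 11.2) and 5.99 (4.62 to 7.86) in mature DC-like cells, 3.75 (2.13 to 6.98) in MC38 neutrophil-like cells and 2.72 (1.56 to 4.97) and 2.75 (1.76 to 4.40) in mast- or basophil-like cells. T-cell-like cells stood at 0.820 (0.723 to 0.929) and 1.09 (0.896 to 1.32), and NK- or ILC1-like cells at 0.995 and 1.03. In monocyte- or macrophage-like cells the ratio was 1.15 (1.04 to 1.27) for control and 0.773 (0.739 to 0.809) for MC38, intervals that did not overlap. In the MC38 library mature DC-like and neutrophil-like cells had the highest Fas levels and also the highest of these ratios.

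The comparison of libraries asks how the pathway in each liver cell type differed when MC38 tumor grew in the liver. A gene counted as past the fold when its CPM differed at least 1.5 times with an interval that left out no difference, and it was measured when it had at least 10 UMIs in both libraries together. In T-cell-like cells 0 of the 7 genes were past the fold, where 13.6% of all 11278 measured genes were. The counts were 0 of 6 in NK- or ILC1-like cells (10.9% of all measured genes), 0 of 4 in B-cell-like cells (12.2%), 0 of 5 in pDC-like cells (10.7%) and 0 of 4 in cDC2-like cells (15.6%). In monocyte- or macrophage-like cells 3 of 5 were past the fold, Fas, Tnfsf10 and Cflar, each lower in the MC38 library, where 23.8% of all 13086 measured genes were past it in either direction. The count was 2 with median scaling, where Cflar was short of the fold, and 2 with thinned cells, where Tnfsf10 was. Cflar was also under 1.5 times in another setting (log2 ratio -0.46) and short of a fold of 2. The median log2 ratio of well counted genes, a measure of the scaling, was within 0.1 of 0 in 5 classes and at -0.12 in B-cell-like cells.

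In monocyte- or macrophage-like cells Fas was at 36.8 CPM on 271 control UMIs and 14.3 CPM on 644 MC38 UMIs, a log2 ratio of -1.36 (-1.57 to -1.15), or 2.57-fold lower. Tnfsf10 was at 3.67 and 0.690 CPM, a log2 ratio of -2.41 (-3.20 to -1.61). Cflar was at 114.5 and 74.9 CPM, a log2 ratio of -0.61 (-0.72 to -0.50), close to the 1.5-fold limit. Casp8 at 99.6 and 96.9 CPM (log2 ratio -0.04, -0.15 to 0.08) and Fadd at 8.83 and 8.89 CPM (0.01, -0.37 to 0.41) were not past it. Cells with classical monocyte markers (538 and 3304) gave the same picture, with Fas at 42.5 and 15.5 CPM (log2 ratio -1.46, -1.69 to -1.23), Tnfsf10 at 4.21 and 0.635 CPM and Cflar at 117.4 and 75.2 CPM. In nonclassical monocyte-like cells (113 and 52), which patrol vessels, Fas was at 28.8 and 3.96 CPM (30 and 2 UMIs), Cflar at 121.7 and 65.3 CPM, and Casp8 higher in the MC38 library, at 57.5 and 110.8 CPM (log2 ratio 0.95, 0.40 to 1.5). MC38 cells with macrophage markers held 7.17 CPM of Fas (278 cells), 0.464 times (0.295 to 0.697) the classical monocyte-like level of that library.

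Different clusters of the same cells held most of this class in the 2 libraries. Of control monocyte- or macrophage-like cells, 66.8% lay in Leiden cluster 0 and 13.2% in cluster 11, which held 1.21% and 0.184% of the MC38 cells. Of MC38 cells, 36.0% lay in cluster 26, 27.8% in cluster 25, 18.6% in cluster 13 and 9.44% in cluster 19, which held 10, 2, 54 and 2 control cells. Within cluster 0 (510 and 46 cells) Fas was at 37.0 and 13.3 CPM on 175 and 6 UMIs (log2 ratio -1.47, -2.94 to -0.32), and within cluster 13 (54 and 707 cells) at 127.4 and 14.4 CPM (-3.14, -3.60 to -2.68). Cflar was at 105.4 and 71.2 CPM in cluster 0 (-0.57, -1.13 to -0.05), short of the fold, and at 335.0 and 79.0 CPM in cluster 13 (-2.08, -2.33 to -1.83). Within cluster 8 (60 and 81 cells) Cflar did not differ beyond counting error, at 53.9 and 55.6 CPM (0.04, -0.61 to 0.71). Fas there rested on 5 and 1 UMIs. Tnfsf10 was at 4.66 and 11.1 CPM in cluster 0 on 22 and 5 UMIs, a ratio in the other direction (1.26, -0.50 to 2.69) that was not past the fold, and it was at 2.06 and 0.476 CPM in cluster 13 on 1 and 4 UMIs. The clusters were drawn from the same expression values, and these values within clusters were added after seeing the data.

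Markers of other cell types differed in this class too. The 8 T markers summed to 27.7 CPM (control) and 8.51 CPM (MC38), the 9 NK or ILC1 markers to 42.3 and 10.9 CPM, the 7 neutrophil markers to 887 and 4502 CPM and the 7 hepatocyte markers to 95.1 and 290 CPM. The part of these markers in the Fas, Tnfsf10 and Cflar differences was not tested, and Fas stood at 90.9 CPM in MC38 neutrophil-like cells, above the class.

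**Figure D3:**
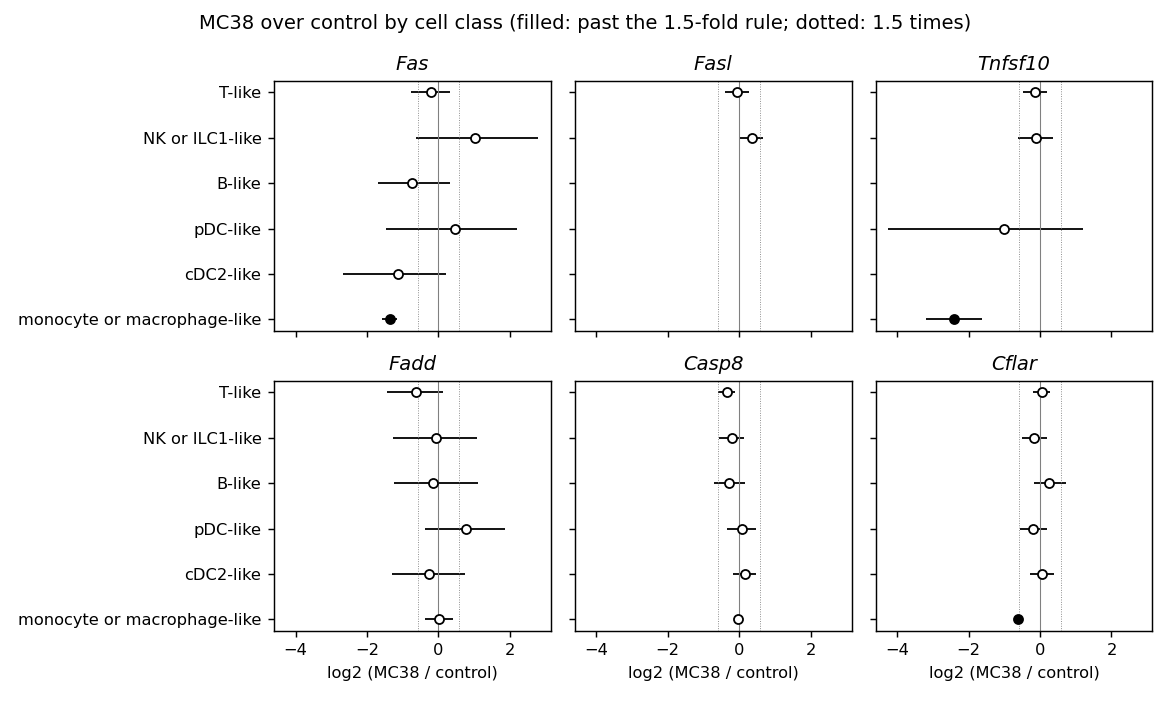
Log2 ratio of MC38 to control CPM (horizontal axis) for 6 of the genes in the 6 classes with at least 100 cells per library (vertical axis), with exact conditional 95% intervals. Filled points are past the fold, dotted lines mark 1.5 times, and gene and class pairs under 10 UMIs are left out. The filled points are Fas, Tnfsf10 and Cflar in monocyte- or macrophage-like cells, all below 0.

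Interferon genes were lower in the same class. All 10 of 10 listed interferon genes were past the fold and lower in MC38 monocyte- or macrophage-like cells, where 23.8% of all measured genes were past it, with a median log2 ratio of -2.3 beside -0.05 over all measured genes. Examples are Rsad2, an antiviral enzyme, at 50.5 and 3.65 CPM, Ifit3 at 53.5 and 4.10 CPM and Ifit1 at 44.0 and 5.66 CPM. The median cell held 9.67 (control) and 3.98 (MC38) interferon gene UMIs per 10000. Cells were therefore set in 3 ranges of that level, under 5, from 5 to under 20, and 20 or more per 10000 UMIs, a division chosen after the values were seen. The ranges held 154, 463 and 147 control cells and 2283, 1416 and 106 MC38 cells. Within 10% of the limit of 5 lay 40 and 326 cells, and of the limit of 20, 39 and 58 cells. The median cell held 0 UMIs of T, NK or ILC1, B and pDC markers in all ranges of both libraries, 0.970 to 1.0 neutrophil marker UMIs per 10000 over the control and 2.19 to 5.06 over the MC38 ranges, and 0 and 2.08 to 2.44 hepatocyte marker UMIs.

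Fas was lower in the MC38 library in each range, at 32.0 and 13.2 CPM in the lowest (log2 ratio -1.28, -1.72 to -0.82), 34.5 and 15.6 CPM in the middle (-1.14, -1.44 to -0.85) and 50.8 and 25.5 CPM in the highest (-1.0, -1.69 to -0.34). Levels within a range were not equal, since the median cell held 3.14 (control) and 2.44 (MC38) interferon UMIs per 10000 in the lowest, 9.77 and 8.07 in the middle and 30.2 and 25.3 in the highest range. The part of interferon genes in the Fas difference was not tested. Cflar differed from this, at 71.8 and 72.8 CPM in the lowest range (0.02, -0.26 to 0.31), 100.7 and 76.1 CPM in the middle (-0.40, -0.56 to -0.25) and 215.1 and 111.0 CPM in the highest (-0.95, -1.27 to -0.64). Its difference between the libraries was thus past the fold in the highest range alone. Tnfsf10 was at 1.31, 1.54 and 14.1 CPM over the control ranges and at 0.399, 0.864 and 5.46 CPM over the MC38 ranges, and none of its 3 differences between libraries was past the fold, on 27 control and 31 MC38 UMIs in all. Casp8 stood between 89.4 and 114.2 CPM over the control ranges and between 91.6 and 136.5 CPM over those of MC38.

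**Figure D4:**
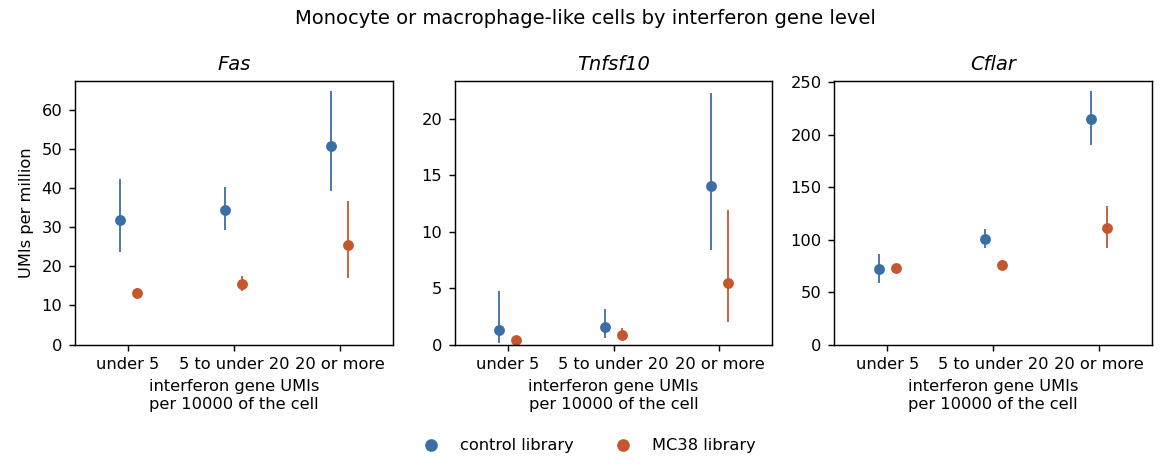
Fas, Tnfsf10 and Cflar in monocyte- or macrophage-like cells (vertical axis, CPM, linear) by interferon gene UMIs per 10000 of the cell (horizontal axis, 3 ranges), for the control (blue) and MC38 (orange) library with exact Poisson 95% intervals. Fas is lower in the MC38 library in each range, while Cflar is at 71.8 and 72.8 CPM in the lowest range and at 215.1 and 111.0 CPM in the highest.

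In T-cell-like cells as a whole neither the ligands nor the receptor were past the fold. Fasl was at 45.5 and 43.6 CPM (log2 ratio -0.06, -0.40 to 0.27), Fas at 18.6 and 16.1 CPM (-0.21, -0.77 to 0.33) and Tnfsf10 at 46.6 and 42.5 CPM (-0.13, -0.47 to 0.20). Over the settings tried, the log2 ratio ranged from -0.67 to 0.83 for Fas and from -0.68 to 0.60 for Fasl, so neither had a stable direction. Casp8 was at 104.4 and 81.8 CPM (-0.35, -0.59 to -0.12), short of 1.5 times. Fadd was at 11.6 and 7.47 CPM (-0.63, -1.45 to 0.13), with an interval that reached past no difference. These cells held monocyte or macrophage markers at 181.9 and 316.0 CPM and hepatocyte markers at 140.7 and 533.4 CPM, whose part was not tested.

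T-cell-like cells were also divided by the coreceptor UMIs they held. In Cd8 T-cell-like cells (193 and 127) Fas was lower in the MC38 library, at 25.6 and 12.9 CPM (45 and 14 UMIs, log2 ratio -0.99, -1.97 to -0.10), and Fasl higher, at 25.6 and 42.5 CPM (45 and 46 UMIs, 0.73, 0.10 to 1.35). Both were past the fold with an interval end near 0. In Cd4 T-cell-like cells (190 and 115) Fas was at 12.1 and 18.5 CPM (0.62, -0.52 to 1.71) and Fasl at 46.3 and 29.9 CPM (-0.63, -1.41 to 0.09), neither past the fold, and Fadd was lower, on 26 and 3 UMIs. The difference between Cd8 and Cd4 cells in these ratios was not tested. Within the control library Cd8 cells had 2.13 times (1.22 to 3.85) the Fas and 0.553 times (0.373 to 0.813) the Fasl of Cd4 cells. Cells with neither coreceptor UMI held Fas at 15.1 and 20.3 CPM and Fasl at 63.6 and 59.5 CPM. Cycling T-cell-like cells (87 and 44) held Fasl at 24.0 and 50.2 CPM (35 UMIs in each, 1.06, 0.35 to 1.78), past the fold.

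In NK- or ILC1-like cells Fasl was at 101.6 and 129.1 CPM (0.35, 0.02 to 0.68) and in the conventional NK-like subset at 102.8 and 149.6 CPM (0.54, 0.11 to 0.97), higher in the MC38 library but short of 1.5 times. Tnfsf10 was lower in ILC1-like cells, at 171.1 and 108.8 CPM (57 and 39 UMIs, -0.65, -1.28 to -0.04), past the fold with an interval end near 0. Fas in this class rested on 6 and 9 UMIs.

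**Figure D5:**
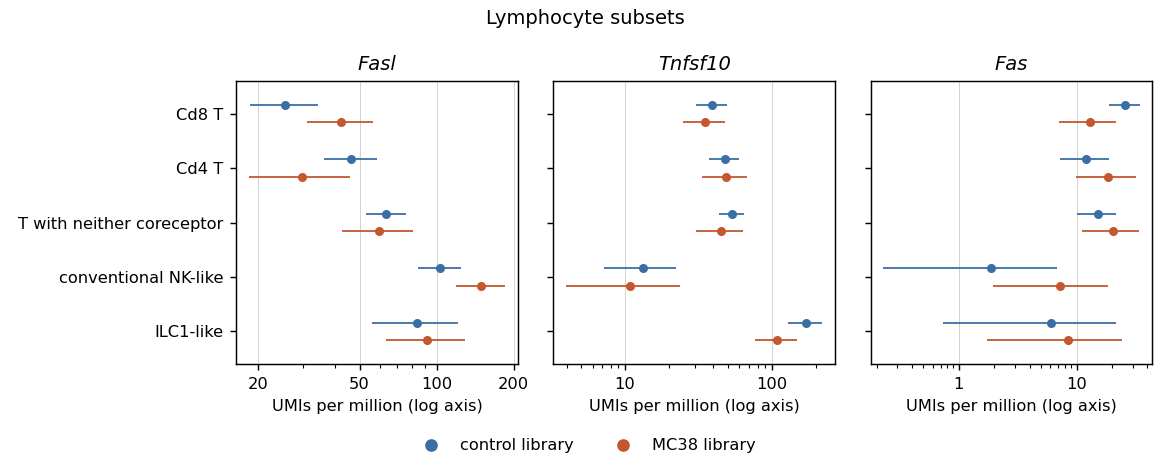
Fasl, Tnfsf10 and Fas in T-cell-like subsets and NK- or ILC1-like subsets (vertical axis), as CPM on log axes that differ between panels, for the control (blue) and MC38 (orange) library with exact Poisson 95% intervals. Fas in Cd8 cells is at 25.6 CPM (control) and 12.9 CPM (MC38), and Tnfsf10 is highest in ILC1-like cells, at 171.1 and 108.8 CPM.

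Other genes of the pathway, from lists by role, are given with control before MC38 values. Of all measured genes, 23.8% were past the fold in monocyte- or macrophage-like, 13.6% in T-cell-like, 10.9% in NK- or ILC1-like, 10.7% in pDC-like, 15.6% in cDC2-like and 12.2% in B-cell-like cells, in either direction, and the counts of each list stand beside these shares. Among other death ligands, Tnf was lower in monocyte- or macrophage-like cells (15.6 and 4.61 CPM, log2 ratio -1.76), the single listed ligand past the fold of 3 measured there. In T-cell-like cells 2 of 4 measured ligands were lower, Tnfsf14, encoding LIGHT, at 30.6 and 7.08 CPM (-2.11) and Tnf at 14.0 and 5.50 CPM (-1.35), and Lta, encoding lymphotoxin alpha, was higher at 8.76 and 16.1 CPM (0.88). In NK- or ILC1-like cells 2 of 3 were lower, Tnfsf12 at 71.3 and 46.2 CPM and Tnfsf14 at 26.5 and 13.7 CPM, and in pDC-like cells the 1 measured ligand was Tnf, at 13.2 and 4.89 CPM. Fasl and Tnfsf10 were not past the fold in any of these classes but the monocyte- or macrophage-like one, where Tnfsf10 was and Fasl had too few UMIs.

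Among other death and decoy receptors of monocyte- or macrophage-like cells, 3 of 7 measured were higher and 2 lower. Higher were Tnfrsf23 (1.09 and 9.49 CPM, log2 ratio 3.13, 2.13 to 4.35) and Tnfrsf26 (1.09 and 4.39 CPM, 2.01, 1.01 to 3.25), and Tnfrsf22, with 0 control UMIs and 48 MC38 UMIs (1.07 CPM). Tnfrsf22 and Tnfrsf23 encode mouse TRAIL-binding receptors that lack a working death domain. The 3 are neighbouring relatives on the genome, and whether reads were shared between them was not tested. Lower were Tnfrsf1b, encoding tumor necrosis factor receptor 2, at 246.5 and 133.2 CPM (-0.89), and Ngfr, at 1.63 and 0.757 CPM. In T-cell-like cells 0 of 7 were higher and 2 lower, Tnfrsf25, encoding death receptor 3, at 31.7 and 15.7 CPM and Tnfrsf1a at 46.0 and 26.7 CPM. In NK- or ILC1-like cells 0 of 4 were past the fold.

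Of the receptor complex and its regulators, 14 were measured in monocyte- or macrophage-like cells. Higher were Tradd, the adaptor of tumor necrosis factor receptor 1 (28.7 and 48.3 CPM, 0.75), and Ripk3, the kinase of necroptosis (20.0 and 32.9 CPM, 0.72), and lower were Daxx, a Fas-binding protein (76.6 and 35.3 CPM, -1.12), and Birc3, a ubiquitin ligase (99.1 and 54.8 CPM, -0.85). The list's median log2 ratio was -0.35. In T-cell-like cells 1 of 15 was lower, the phosphatase gene Ptpn13. Among executioner and mitochondrial genes, Casp6 was higher in monocyte- or macrophage-like cells (27.0 and 41.2 CPM) and Cycs, encoding cytochrome c, was lower (196.1 and 123.6 CPM). Adam10, the protease that sheds Fas ligand, was higher in monocyte- or macrophage-like cells at 67.0 and 127.2 CPM (0.93, 0.79 to 1.06), and Sppl2a, which cuts the stub that is left, was lower at 211.3 and 125.9 CPM (-0.75). Egr2 and Nfatc2, transcription factors known to act on Fasl in T cells, were also lower in that class, at 8.15 and 4.52 CPM and 18.8 and 12.4 CPM.

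A list of cytotoxic genes gives the setting of Fasl in killer lymphocytes. It holds granule genes and also the receptor gene Klrk1 and the cytokine gene Ifng. In T-cell-like cells 0 of 8 were past the fold (median log2 ratio -0.02, beside -0.01 over all measured genes), and in NK- or ILC1-like cells 0 of 8 (-0.05, beside -0.08). In monocyte- or macrophage-like cells 5 of 6 measured were lower (median -1.18, beside -0.05), among them Klrk1 at 26.6 and 3.34 CPM, Gzma at 6.93 and 3.32 CPM and Ctsw at 2.99 and 1.23 CPM. Klrk1 and Gzma are also NK markers of the gating. The part of these genes in the Tnfsf10 difference of that class was not tested. Interferon genes were past the fold and lower for 8 of 10 in T-cell-like cells (median -1.54), 4 of 9 in NK- or ILC1-like, 7 of 9 in pDC-like and 6 of 10 in cDC2-like cells, and for 0 of 8 in B-cell-like cells.

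Over the 17 class and library units of at least 100 cells, the genes whose log2(CPM + 10) followed Fasl most closely were Gzma (Pearson's r 0.997), itself an NK marker of the gating, Klrc1 (0.996) and Klrc2 (0.992). For Tnfsf10 they were Cd160 (0.993), Cd96 (0.992) and Tcrg-C4 (0.988), all genes of T, NK or related lymphocytes. Fas was followed less closely, by Usp32 (0.863), Mxi1 (0.839) and Rab11fip1 (0.809), and Cflar by Cd274, encoding PD-L1 (0.888), Clip2 (0.873) and Vsig10 (0.869). For Casp8 they were Magohb (0.884), Tpp2 (0.869) and G3bp2 (0.859), for Fadd Dnm1l (0.901), Gnl2 (0.862) and Fam96b (0.837), and for Tnfrsf10b, which never passed 2.80 CPM in these units, Cd8a (0.942), Cd8b1 (0.925) and Cd4 (0.882). These are the closest of 6240 genes, units of one library share its depth and free RNA, and the values are a description.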

How the data were processed

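The deposited files hold counts of UMIs per gene and barcode, with no normalization, per the file headers and as the whole numbers show. Tools listed in the submitters' processing notes are Seurat 2.3.4, R 3.6.0, STAR, Cell Ranger 2.2 and bcl2fastq, with the build GRCm38.p6, while the matrix headers name software version 3.0.2. No source used here gives the roles or order of these tools or the strand setting.

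The steps here used Python 3.11.15, numpy 2.4.6, scipy 1.17.1, pandas 2.3.3, scanpy 1.11.5, igraph 0.11.9 and matplotlib 3.10.9. Barcodes kept had at least 200 genes, at most 10% mitochondrial UMIs and no scrublet doublet call (617 control and 1727 MC38 calls removed). A cell joined a class with at least 4 distinct markers of it (5 for neutrophil and erythroid, 3 for stellate), or, with no class, as hepatocyte-like at 1% or more hepatocyte marker UMIs; barcodes passing unrelated gates were set apart. UMIs were summed per class and library. Intervals were exact Poisson for levels, binomial for shares and conditional for ratios, and the fold rule was tested on simulated data. Each library pooled 3 mice, so p-values were not computed.

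Named genes were the 7 members, per list the genes past the fold (at most 3 in each direction per class, by the interval end nearest 0), and the 3 most alike genes per member among those with at least 50 CPM in a unit. Some genes of the executioner list are not reported here. The members and lists were chosen with earlier results of these data known. Symbols matched all 7 members; 6 had a promoter window in the RefSeq table. Alternatives tried were doublet calls kept, at least 500 genes, mitochondrial limits of 5% and 30%, other scalings and folds, means over cells, thinning, Leiden clusters, and looser or stricter marker limits.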

Additional observations from a re-analysis of the deposited data

Results flagged for a closer look

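Barcodes over the 10% mitochondrial limit entered no comparison, and 2 of their values were past the fold and higher in the MC38 library. In T-cell-like barcodes over the limit (2740 control and 216 MC38), Fas was at 16.2 CPM (control) and 26.0 CPM (MC38), a log2 ratio of 0.68 (0.09 to 1.23), where kept T-cell-like cells had a ratio of -0.21. In NK- or ILC1-like barcodes over the limit (472 and 67), Fasl was at 101.5 and 162.1 CPM, a log2 ratio of 0.68 (0.19 to 1.13), where kept cells had 0.35. Monocyte- or macrophage-like barcodes over the limit held 1 Fasl UMI in 515 control barcodes (0.23 CPM) and 6 Fasl UMIs in 5 of 329 MC38 barcodes (2.37 CPM, 0.869 to 5.15). This MC38 interval lay above that of kept MC38 cells of the class (0.0627 to 0.321). As background, B-cell-like barcodes over the limit held 8 Fasl UMIs in 2045 control barcodes (0.881 CPM, 0.380 to 1.74). In 1439 MC38 barcodes they held 1 (0.198 CPM, 0.00502 to 1.10), below the MC38 monocyte or macrophage level. The ends of these MC38 intervals overlapped, which does not show equal levels, and the ratio between the classes was not computed. Other values had intervals that did not overlap and were lower in the MC38 library. Over the limit, Fas was at 30.8 CPM (25.8 to 36.5) and 9.07 CPM (5.75 to 13.6) and Cflar at 105.1 CPM (95.7 to 115.2) and 82.8 CPM (72.0 to 94.8) in monocyte- or macrophage-like barcodes, and Tnfsf10 at 3.08 CPM (2.05 to 4.45) and 0.594 CPM (0.123 to 1.74) in 2045 and 1439 B-cell-like barcodes.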

How the results depend on the processing

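In monocyte- or macrophage-like cells the log2 ratios of Fas (-1.85 to -0.99), Tnfsf10 (-2.98 to -1.70) and Cflar (-0.79 to -0.46) kept their sign under all 10 settings, and 2 to 4 genes were past the fold. Cflar was short of it with median scaling. Its ratio nearest to no difference, -0.46, came from another setting and was also under 1.5 times in size. Cflar was short of a fold of 2 as well. Tnfsf10 was short of the 1.5-fold limit with thinned cells. Of the classes with 0 genes past the fold, the mean over cells gave 1 in T-cell-like (Fadd lower), 1 in NK- or ILC1-like (Fas higher), 2 in B-cell-like (Fas and Fadd lower), 2 in pDC-like (Fadd higher, Tnfsf10 lower) and 1 in cDC2-like cells (Fas lower). The mean over cells had no interval, so its calls rest on a ratio of 1.5 times alone, a looser rule than that of the other settings. With no limit on markers of other classes the counts were 1 in T-cell-like (Fas lower), 1 in NK- or ILC1-like (Fas lower), 1 in B-cell-like (Fasl lower) and 2 in cDC2-like cells (Fasl and Tnfsf10 lower), Leiden clusters gave 1 in T-cell-like cells (Fasl lower), and mitochondrial limits of 5% and 30% gave 2 and 1 in cDC2-like cells (Fas lower in both, Cflar in the first). Fasl in monocyte- or macrophage-like cells was 0 CPM in the control with the 5% limit, 0 CPM in both libraries with thinning, and 6.61 and 1.82 CPM (control and MC38) with no limit on other markers, which admits barcodes that also pass the T or NK gate. The cause of the other changes was not tested. Of all class folds over the settings, 270 lay within the counting interval of the reported value and 26 lay outside it. The stricter limit of at most 1 unrelated marker, and the T subset settings other than the 30% limit, were chosen after seeing the data. Fas in Cd8 cells stayed lower (-1.29 to -0.40), and in Cd4 cells it turned lower with Leiden clusters (-0.46), no marker limit (-0.44) and the stricter limit (-0.48), never past the fold. The 5% limit left too few B-cell-like and pDC-like cells for some values. No paired analysis was possible because each group has 1 library. Depth limits Fasl in classes with few cells, among them Kupffer-like, neutrophil-like and mature DC-like cells, and the unequal mitochondrial loss (74.8% and 33.3%) could not be told apart from the groups.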
